A study of Mus musculus with 18 samples.

Results

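Voltage-gated calcium, sodium and HCN channels were represented by 67 of the 45037 probe sets of the array, every probe set that names a single gene whose symbol begins with Cacna, Cacnb, Cacng, Scn or Hcn as these channel families are named. They read 34 genes of 17097 that have a probe set of their own. Of these, 18 encode pore-forming subunits and 16 auxiliary subunits. A filter on low signal, a mean above log2 5.95 over all arrays, left 31 genes and 57 probe sets, 15 pore-forming and all 16 auxiliary genes. Cacna1s, Scn9a and Scn11a, all pore-forming, fell under the filter and were not tested. Where several probe sets passed, the gene was represented by the one with the highest mean.

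A voltage-gated calcium or sodium channel is built around a single large protein that forms the pore and senses voltage. Calcium entering through it triggers transmitter release, dendritic spikes and gene expression, whereas sodium carries the rising phase of the action potential. Auxiliary subunits do not conduct. The calcium β and α2δ subunits bring pores to the membrane and set their gating, the sodium β subunits are adhesion proteins that shape sodium current, and most γ proteins found in brain are AMPA receptor partners (TARPs) despite their calcium channel names. HCN channels open on hyperpolarisation and carry the pacemaker current of many neurons.

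RNA came from cortex and striatum, dissected together from mice aged 6 weeks, 3 controls (CTRL) and 3 carrying TgCPEB4∆4, a transgene of the poly(A)-tail regulator CPEB4. The sources used here do not give the strain, the promoter of the transgene or whether controls were littermates. Each mouse gave 3 arrays, one of total RNA (INPUT), one of RNA released from poly(U) by 25% formamide (WASH, enriched for short tails) and one of RNA released by 90% formamide (ELUTED, enriched for long tails). All values are log2 expression. The tail ratio of a probe set is its ELUTED value minus its WASH value in the same mouse, so that a positive ratio means a larger share of the long-tail than of the short-tail RNA.

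All 5 neuronal markers tested exceeded the brightest nonspecific control on every array, and so did both tested markers of cortical projection neurons. The brightest of 23 such control probe sets lay between 7.07 and 7.52 on INPUT arrays, between 5.43 and 6.03 on WASH arrays and between 5.53 and 6.29 on the other ELUTED arrays, but at 7.30 on the ELUTED array of control mouse 1. That array also had the narrowest spread of values (SD 1.70). The tail ratio had an SD over probe sets of 1.19, 0.593 and 0.859 in control mice and 0.614, 0.621 and 0.388 in transgenic mice, widest in control mouse 1 and narrowest in transgenic mouse 3. The 7 channel genes Cacna1f, Scn10a, Scn3a, Scn7a, Cacnb4, Cacng1 and Cacng6 were not above the nonspecific controls on all WASH and ELUTED arrays. The 6 genes Cacna1f, Hcn2, Scn10a, Scn7a, Cacng1 and Cacng6 were above them on no INPUT array. For these genes the values are partly background.

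In control mice the channel mRNAs divided by subunit. Calcium pore mRNAs and the TARP mRNAs lay mostly toward the long-tail fraction, and the sodium β mRNAs and a few pores and auxiliary subunits lay toward the short-tail fraction. Of the 31 genes tested, 14 (45.2%) had a positive and 6 (19.4%) a negative mean tail ratio at an adjusted p under 0.05 (limma, Benjamini-Hochberg over 27022 probe sets). Over all 11974 genes the shares were 20.5% positive and 39.9% negative. The median tail ratio of the channel genes was 0.38, against -0.18 over all genes. Among pore-forming genes 8 of 15 were called positive and 2 negative, with a median of 0.44, and among auxiliary genes 6 of 16 were called positive and 4 negative, with a median of 0.21. The tail ratio also moved with signal. The 25% of all genes with the lowest means (from 5.95) had a median of 0.25, the 25% with the highest (9.20 to 13.26) a median of -0.49. Of the channel genes, 15 fell among those with the highest means, and 12 of them had a positive tail ratio, with a median of 0.30. Without control mouse 1, 13 of the 20 calls were kept, and those of Cacna1a, Scn10a, Cacna2d4, Cacng1, Cacng6, Scn2b and Scn4b were lost. Without control mouse 3, 14 were kept, and those of Cacna1a, Cacna1h, Cacng1, Cacng6, Cacng3 and Cacng7 were lost.

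**Figure D1:**
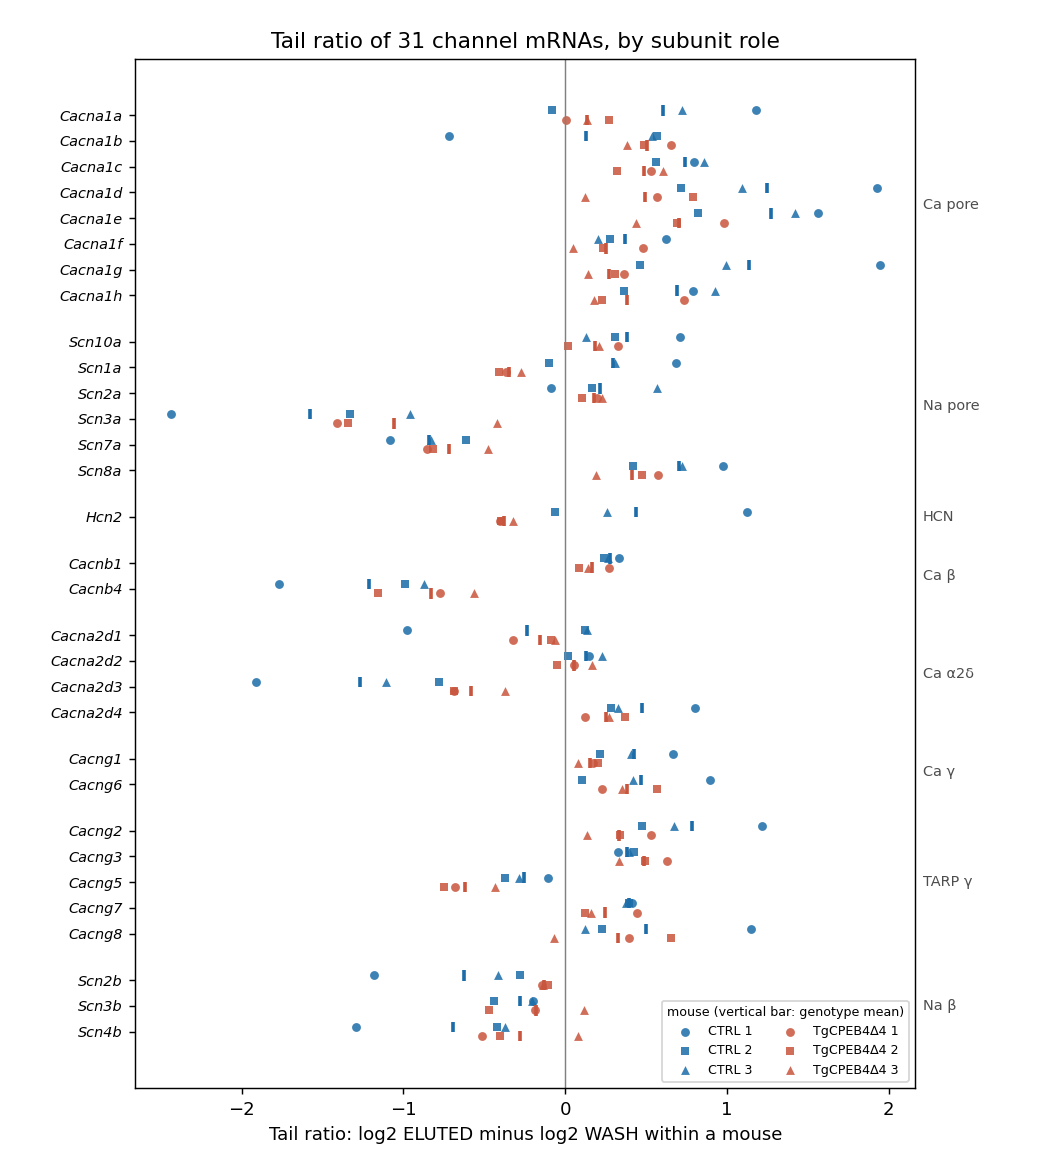
Tail ratio (ELUTED minus WASH, log2) of the 31 channel genes in each of 3 control (blue) and 3 TgCPEB4∆4 mice (red), ordered by subunit role, with a vertical bar at each genotype's mean. All 8 calcium pores have positive means in both genotypes and all 3 sodium β subunits negative means, and control mouse 1 often lies farthest from 0.

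The calcium pores pointed one way. All 8 tested had a positive mean in control mice, 6 of them called, with a median of 0.72. Cacna1e, the R-type pore, had tail ratios of 1.56, 0.82 and 1.42 in control mice 1, 2 and 3 and of 0.98, 0.69 and 0.44 in transgenic mice 1, 2 and 3. Every mouse was positive and the mean was 1.27 ± 0.39 (SD, n = 3) in control mice and 0.70 ± 0.27 in transgenic mice (limma adjusted p = 0.00093 and 0.021). Behind these ratios lay WASH levels of 9.70, 9.72 and 9.65 against ELUTED levels of 11.27, 10.55 and 11.08 in control mice. Cacna1d, an L-type pore that opens at fairly negative voltages, gave 1.93, 0.71 and 1.09 in control mice and 0.57, 0.79 and 0.12 in transgenic mice. Its mean was 1.25 ± 0.62 in control mice (adjusted p = 0.0026) and 0.49 ± 0.34 in transgenic mice (adjusted p = 0.13). Cacna1g, a T-type pore of low voltage threshold, gave 1.95, 0.47 and 1.00 against 0.36, 0.31 and 0.14, and every control mouse lay above every transgenic mouse.

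Cacna1c, the main L-type pore of forebrain neurons, varied least among the called pores. It gave 0.80, 0.56 and 0.86 in control mice and 0.53, 0.32 and 0.61 in transgenic mice, and it was called in both genotypes (0.74 ± 0.16, adjusted p = 0.0020; 0.49 ± 0.15, adjusted p = 0.025). Cacna1h, another T-type pore, had a control mean of 0.69 ± 0.29 (adjusted p = 0.0075). The presynaptic pores that drive transmitter release behaved less evenly. Cacna1a, the P/Q-type pore, gave 1.18, -0.08 and 0.72 in control mice, a called mean of 0.61 ± 0.64 (adjusted p = 0.037) in which control mouse 2 lay near 0. Without control mouse 1 the mean was 0.32 (adjusted p = 0.17), and the call was also lost without control mouse 3 or any 1 transgenic mouse. Cacna1b, the N-type pore, gave -0.72, 0.57 and 0.54 in control mice, so that control mouse 1 was opposite to the others and the mean of 0.13 ± 0.73 was not called (adjusted p = 0.65). In transgenic mice Cacna1b gave 0.65, 0.48 and 0.39, all positive, with an adjusted p of 0.13. Cacna1f, a pore known from photoreceptors, had a mean of 0.37 ± 0.23 (adjusted p = 0.051). Its signal was not above the nonspecific controls on any INPUT array or on the ELUTED array of control mouse 1 (6.75).

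The sodium pores were split. Scn8a, the pore of the axon initial segment and nodes, gave 0.97, 0.42 and 0.72 in control mice and 0.57, 0.47 and 0.19 in transgenic mice, and was called in control mice (0.70 ± 0.28, adjusted p = 0.0045) but missed the threshold in transgenic mice (0.41 ± 0.20, adjusted p = 0.063). Scn3a, a pore most abundant before birth, went the other way. Its tail ratios were -2.44, -1.33 and -0.96 in control mice and -1.41, -1.34 and -0.42 in transgenic mice, below 0 in every mouse. The means of -1.58 ± 0.77 and -1.06 ± 0.55 were called in both genotypes (adjusted p = 0.0026 and 0.028). Its WASH levels were 8.63, 8.52 and 8.46 in control mice and its ELUTED levels 6.19, 7.19 and 7.50, of which that of mouse 1 was not above the nonspecific controls, so the ratio of that mouse is not an exact value.

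Scn7a, a sodium-sensing relative that is not opened by voltage, also lay toward short tails in every mouse (-1.09, -0.61 and -0.83 in control mice and -0.85, -0.82 and -0.48 in transgenic mice). Its means of -0.84 ± 0.24 and -0.72 ± 0.21 were called (adjusted p = 0.0019 and 0.010). The signal passed the nonspecific controls on only 1 of 3 ELUTED arrays in each genotype. Scn1a, the main pore of parvalbumin interneurons, gave 0.68, -0.10 and 0.31 in control mice and -0.36, -0.41 and -0.27 in transgenic mice. All transgenic values lay below all control values, and neither mean was called (0.30 ± 0.39, adjusted p = 0.13; -0.35 ± 0.07, adjusted p = 0.12). Scn2a, the pore of excitatory neurons, was near 0 in both (0.22 ± 0.33 and 0.18 ± 0.06; adjusted p = 0.23 and 0.37). Scn10a, a pore of sensory neurons, was called in control mice (0.71, 0.31 and 0.13; 0.38 ± 0.30, adjusted p = 0.049) with a signal at background on INPUT arrays. Its ELUTED signal in control mouse 1, 7.17, was not above the nonspecific controls either, and the call was lost without that mouse.

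Hcn2 was the only HCN gene among the 34. Its tail ratios of 1.13, -0.06 and 0.26 in control mice spread over more than 1 log2 unit, and the mean of 0.44 ± 0.62 was not called (adjusted p = 0.093). In transgenic mice they were -0.40, -0.40 and -0.32, close together and below every control mouse (-0.38 ± 0.04, adjusted p = 0.19).

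The α2δ subunits, extracellular proteins that include the target of gabapentin, pointed both ways, with a median of -0.05 over 4 genes. Cacna2d3 gave -1.91, -0.78 and -1.11 in control mice and -0.69, -0.69 and -0.37 in transgenic mice. It was called in control mice (-1.27 ± 0.58, adjusted p = 0.0016) but not in transgenic mice (-0.58 ± 0.18, adjusted p = 0.061). Cacna2d4 was called in the other direction (0.80, 0.29 and 0.33; 0.47 ± 0.29, adjusted p = 0.020). Cacna2d1 was set by control mouse 1 (-0.98, 0.12 and 0.14), and Cacna2d2 stayed between 0.02 and 0.23 in control mice, and neither was called (adjusted p = 0.35 and 0.36).

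The pair of cytoplasmic β subunits tested differed. Cacnb4, a β subunit of presynaptic and cerebellar channels, gave -1.77, -0.99 and -0.88 in control mice and -0.77, -1.15 and -0.56 in transgenic mice, and was called in both (-1.21 ± 0.48, adjusted p = 0.0016; -0.83 ± 0.30, adjusted p = 0.018). The ELUTED signal of control mouse 1, 6.61, was not above its nonspecific controls. Cacnb1 gave 0.33, 0.24 and 0.27, a mean of 0.28 ± 0.05 that was not called (adjusted p = 0.063) although all 3 mice were alike.

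The sodium β subunits were the only auxiliary group with a negative mean in each of its genes in control mice. Scn2b, a β subunit disulfide-linked to the pore, gave -1.18, -0.28 and -0.42 in control mice and -0.14, -0.11 and -0.14 in transgenic mice. The control mean of -0.63 ± 0.48 was called (adjusted p = 0.015) and the transgenic mean of -0.13 ± 0.02 was not (adjusted p = 0.59). Scn4b, whose cytoplasmic tail supports resurgent current and whose mRNA is abundant in striatal projection neurons, gave -1.29, -0.42 and -0.37 in control mice (-0.70 ± 0.52, adjusted p = 0.018). Control mouse 1 lay farthest from 0 for both, and without it neither was called (means of the remaining 2 mice gave -0.35 and -0.40). Scn3b was negative in all 3 control mice (-0.20, -0.44 and -0.21) but was not called (-0.28 ± 0.14, adjusted p = 0.12).

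Of the 5 TARPs, 4 had positive means. Cacng2 (stargazin), which carries AMPA receptors to the synapse, gave 1.22, 0.47 and 0.67 in control mice and 0.53, 0.34 and 0.13 in transgenic mice and was called in control mice (0.79 ± 0.38, adjusted p = 0.0046). Cacng3, its close relative in forebrain, gave 0.32, 0.42 and 0.40 in control mice and 0.63, 0.49 and 0.33 in transgenic mice. It was the only auxiliary gene called positive in both genotypes (0.38 ± 0.05, adjusted p = 0.024; 0.48 ± 0.15, adjusted p = 0.021). Cacng7 was tightest of all in control mice (0.41, 0.39 and 0.38; 0.40 ± 0.02, adjusted p = 0.022). Cacng8, a TARP of hippocampus and cortex, gave 1.15, 0.23 and 0.12 and was not called (0.50 ± 0.56, adjusted p = 0.077).

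Cacng5, the remaining TARP, lay on the other side. It gave -0.10, -0.37 and -0.28 in control mice and -0.68, -0.75 and -0.43 in transgenic mice, and was called in transgenic mice alone (-0.25 ± 0.14, adjusted p = 0.11; -0.62 ± 0.16, adjusted p = 0.011). The γ subunits outside the TARP group, Cacng1 of skeletal muscle and Cacng6, were called positive in control mice (0.43 ± 0.23, adjusted p = 0.021; 0.47 ± 0.40, adjusted p = 0.036) with INPUT signals at background.

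In transgenic mice fewer genes were called. Cacna1c, Cacna1e and Cacng3 had a positive tail ratio and Scn3a, Scn7a, Cacnb4 and Cacng5 a negative one, 3 (9.68%) and 4 (12.9%) of the 31, against 6.5% and 20.5% of all genes. The median was 0.18, against -0.17 over all genes. Of the 7 called genes, 4 are pores, and none was called without transgenic mouse 1 or without transgenic mouse 2. The spread used by the test was shared by both genotypes, although control mice varied more. When each genotype was fitted with its own spread, 7 positive and 4 negative channel genes were called in control mice. In transgenic mice 9 positive and 7 negative were called, and shares over all genes were not counted for this fit. When the arrays were quantile-normalised again, the median of all genes moved from -0.18 to 0.00 in control mice and from -0.17 to -0.02 in transgenic mice, and the share of positive calls among channel genes from 70.0% to 80.0% and from 42.9% to 85.7%. Directions in the text are those of the deposited values.

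Set against each other within a mouse, the pore-forming genes had the higher median tail ratio in 6 of 6 mice. The pore-forming median was 0.79, 0.31 and 0.57 in control mice and 0.36, 0.23 and 0.14 in transgenic mice. The auxiliary median was 0.24, 0.11 and 0.18 in control mice and 0.09, 0.02 and 0.10 in transgenic mice, and that of all genes lay between -0.23 and -0.11. The pore-forming median exceeded the auxiliary one by 0.38 ± 0.18 in control mice and by 0.18 ± 0.12 in transgenic mice (SD, n = 3), with a smallest gap of 0.05 in transgenic mouse 3. The calcium pores had the highest medians (0.99, 0.51 and 0.89 in control mice, 0.55, 0.31 and 0.16 in transgenic mice). The sodium pores, at 0.30, 0.03 and 0.22 in control mice and -0.08, -0.20 and -0.04 in transgenic mice, lay below the auxiliary median in control mouse 2 and in all 3 transgenic mice. These are descriptions of chosen genes and carry no test. With the TARPs left out of the auxiliary side the gap was 0.57 in control mice and 0.30 in transgenic mice. Over the 24 genes above the nonspecific controls on all WASH and ELUTED arrays it was 0.57 and 0.30 as well.

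Against total RNA, the pore-forming genes were the higher of the pair in ELUTED in all 3 control mice and the lower in WASH in control mice 1 and 2. The ELUTED minus INPUT medians of pore-forming genes were 0.56, 0.05 and 0.43 in control mice and 0.17, 0.22 and 0.00 in transgenic mice, those of auxiliary genes 0.25, 0.04 and 0.06 and 0.10, 0.04 and 0.07. The WASH minus INPUT medians in control mice were -0.19, -0.14 and 0.00 for pore-forming genes and -0.01, 0.02 and -0.06 for auxiliary genes, against 0.14, 0.08 and 0.15 for all genes. Sodium β mRNAs stood out by their WASH levels, which exceeded INPUT by medians of 0.51, 0.37 and 0.37 in control mice and 0.42, 0.59 and 0.30 in transgenic mice.

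**Figure D2:**
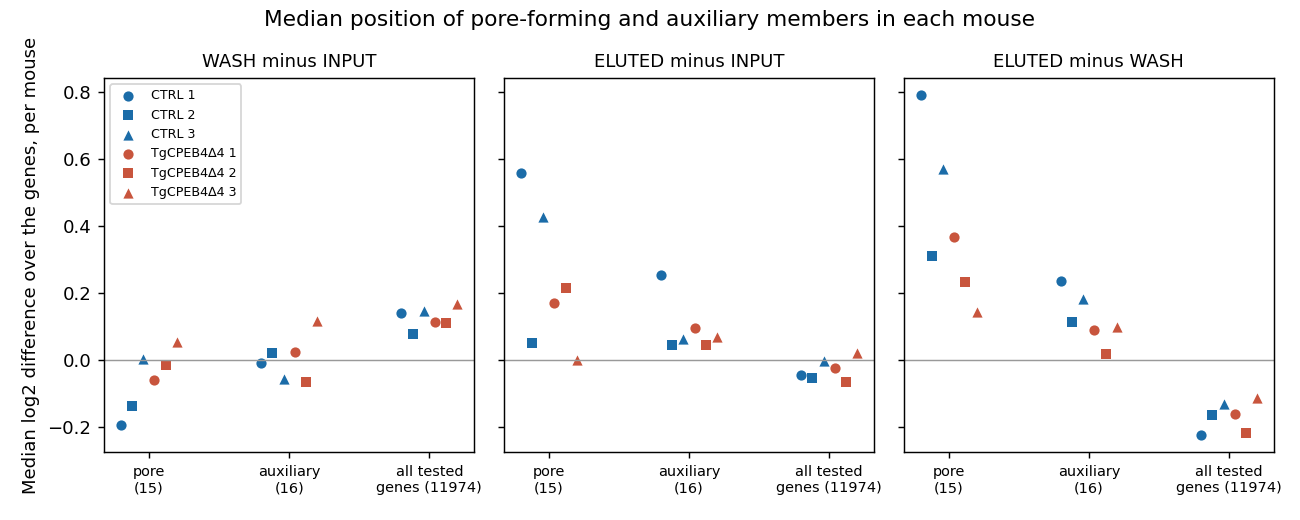
Median log2 difference between preparations over the 15 pore-forming genes, the 16 auxiliary genes and all 11974 tested genes, 1 point per mouse (blue control, red TgCPEB4∆4). In ELUTED minus WASH the pore-forming medians run from 0.14 to 0.79, the auxiliary medians from 0.02 to 0.24 and those of all genes from -0.23 to -0.11.

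Probe sets of one gene mostly gave the same side. Of the 16 genes with several tested probe sets, 13 had one sign throughout in control mice and 3 did not, and none had calls in both directions. All 4 probe sets of Cacna1a were positive and 3 called (means of 0.61, 1.48, 1.15 and 0.69), as were those of Scn8a with 3 called (0.70, 0.20, 1.00 and 1.61). All 3 of Scn2b were called negative (-0.63, -0.39 and -0.64). A second probe set of Cacna1b was called positive (1.66, adjusted p = 0.0015), where the representative was not.

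Among the genes that did not hold together, Scn1a gave 0.30 at its representative probe set and -0.55 and -0.82 at the others, both called (adjusted p = 0.026 and 0.0094). Scn2a gave 0.22, -0.68, -0.02 and -0.64, of which the last was called (adjusted p = 0.030). Directions for Scn1a and Scn2a therefore depend on the probe set, and the mean over probe sets was negative for both (-0.36 and -0.28). The third, Cacng5, gave -0.25 and 0.09, neither called. For Cacna2d1 the representative was at -0.24 and the others were called at -0.72 and -1.18, and for Scn3b a second probe set was called at -0.81 (adjusted p = 0.0029). Which 3′ ends or transcripts the probe sets read was not analysed here.

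**Figure D3:**
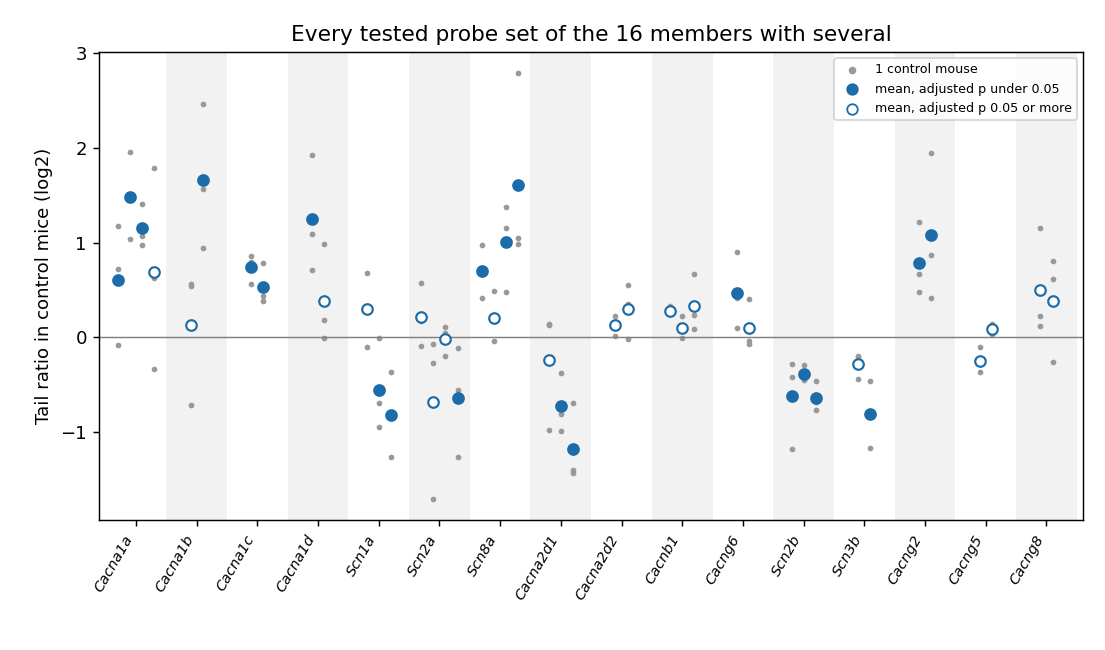
Tail ratio in control mice (log2) of every tested probe set of the 16 channel genes that have several; small grey points are single mice and large points the mean over 3 mice, filled where the limma adjusted p was under 0.05. Scn1a, Scn2a and Cacng5 have probe sets on both sides of 0.

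In total RNA no channel gene differed between genotypes at an adjusted p under 0.05 (limma; 0% of all genes did), and 4 of 31 (12.9%) had an unadjusted p under 0.05, against 11.3% of all genes. Of the 31, 26 were lower in transgenic mice, 13 of 15 pore-forming and 13 of 16 auxiliary genes, with a median log2 difference of -0.11 against 0.03 over all genes. In the same arrays 4 of 5 neuron markers were lower (median -0.14), while all 5 astrocyte, all 4 meningeal and all 5 inflammation markers were higher on average (medians 0.58, 0.52 and 1.79), none of them called. The inflammation median was that of Lcn2, at 10.78, 5.29 and 5.30 in transgenic mice 1, 2 and 3. In transgenic mouse 3 Lcn2, Serpina3n and Oasl2 lay within the control range and Rsad2 and C4b above it. Of its astrocyte markers, Gfap, Slc1a3 and Gja1 lay within that range and Aqp4 and Aldh1l1 above it. The part of all these markers in the channel difference was not tested. The genotypes did not overlap for 5 genes lower in transgenic mice and 1 higher, against 6.63% of all genes lower and 13.2% higher. Scn4b had the smallest p. Its INPUT levels were 8.03, 8.11 and 8.24 in control mice and 7.30, 7.37 and 7.84 in transgenic mice, all transgenic mice below all controls (-0.63 ± 0.15, SE; adjusted p = 0.42), and 1 of 3 transgenic arrays passed the nonspecific controls.

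In the short-tail fraction Scn4b read 8.70, 8.71 and 8.62 against 7.88, 7.96 and 8.14, a difference of -0.68 ± 0.10 (SE; adjusted p = 0.15). In the long-tail fraction the groups overlapped (7.40, 8.29 and 8.24 against 7.36, 7.56 and 8.22). Most markers of striatal projection neurons were lower in INPUT and WASH, but not Ppp1r1b (differences of 0.095 and 0.019). Of 6 tested markers of 8, 5 were lower in transgenic mice in INPUT and none was called. Their summed level (log2) was 12.81 to 12.87 in control mice and 12.55 to 12.67 in transgenic mice in INPUT, and 12.68 to 12.79 against 12.48 to 12.57 in WASH, and Drd2 was above the nonspecific controls on no transgenic INPUT array. Their part in the Scn4b difference was not tested. In such bulk tissue, fewer cells of a type and less RNA per cell cannot be told apart.

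Cacng3 was the one gene with transgenic mice below controls in all 3 preparations. It read 11.29, 11.32 and 11.27 in control mice and 10.57, 10.99 and 10.98 in transgenic INPUT (-0.45 ± 0.13, SE; adjusted p = 0.42). WASH read 11.14, 11.04 and 11.11 against 10.22, 10.86 and 10.99 (adjusted p = 0.32), and ELUTED 11.46, 11.46 and 11.51 against 10.85, 11.35 and 11.32 (adjusted p = 0.39). Transgenic mouse 1 was lowest each time, and without it the WASH difference moved from -0.40 to -0.17. The same mouse stood apart in inflammation markers, with Lcn2 at 10.78 in INPUT against 5.20 to 5.48 in the other mice, and the part of this in the Cacng3 difference was not tested. The other genes with no overlap in INPUT were Cacna1c (9.16, 8.96 and 8.88 against 8.70, 8.58 and 8.79; -0.31 ± 0.12, adjusted p = 0.43), Cacna2d3 and Scn10a. A second probe set of Cacna1c gave an INPUT difference of 0.0041, and the mean over both gave -0.15. Cacnb4 overlapped (8.32, 8.00 and 7.75 against 7.28, 7.88 and 7.80; adjusted p = 0.50).

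At its representative probe set, Cacng5 was the one gene above controls in all 3 preparations. Its second probe set, of lower signal, lay above controls in WASH (difference of 0.61). In INPUT and ELUTED the genotypes overlapped at that probe set (differences of 0.30 and 0.13). The representative INPUT levels were 7.52, 7.62 and 7.42 in control mice and 8.15, 7.93 and 7.84 in transgenic mice (0.45 ± 0.12, SE, adjusted p = 0.42). WASH read 7.92, 7.87 and 7.97 against 8.68, 8.60 and 8.34 (0.62 ± 0.11, adjusted p = 0.16), and ELUTED 7.81, 7.50 and 7.68 against 8.00, 7.85 and 7.90 (0.25 ± 0.17, adjusted p = 0.41). The 5 astrocyte markers were all higher in transgenic mice in each preparation, none called, with a summed INPUT level of 12.49 to 12.52 in control mice and 12.56 to 13.82 in transgenic mice. Their part in the Cacng5 difference was not tested. The other INPUT differences above 0 were small and overlapped. Cacna2d2 read 9.54, 9.49 and 9.66 against 9.56, 9.67 and 9.82, Scn3a 7.95, 7.72 and 7.41 against 7.75, 7.86 and 7.80, and Scn3b 8.40, 8.62 and 8.49 against 8.37, 8.55 and 8.78.

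**Figure D4:**
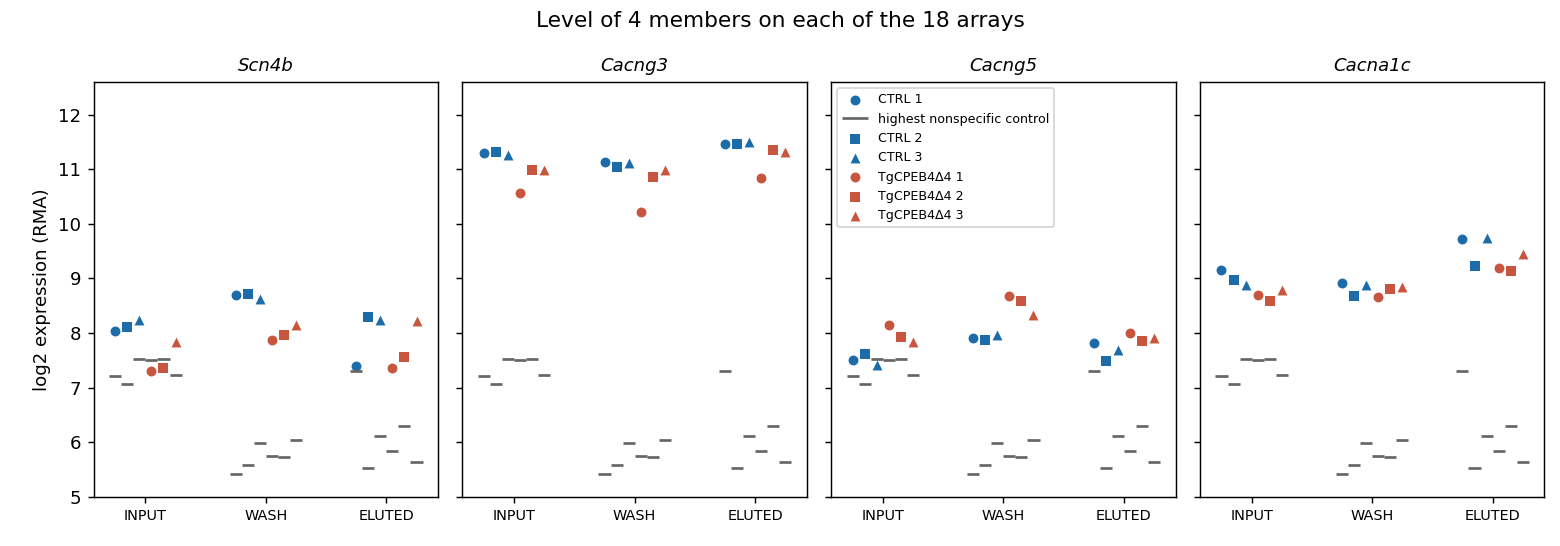
Log2 expression of Scn4b, Cacng3, Cacng5 and Cacna1c on each of the 18 arrays, 1 symbol per mouse (blue control, red TgCPEB4∆4), with a grey dash at the highest nonspecific control of that array. At the representative probe sets shown, Cacng3 is lower and Cacng5 higher in all transgenic mice in every preparation. Scn4b overlaps in ELUTED, and Cacna1c overlaps in WASH and ELUTED.

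In the WASH fraction 0 of 31 channel genes were called (0% of all genes), and 5 (16.1%) had an unadjusted p under 0.05, against 16.7% of all genes. Pore-forming and auxiliary genes had medians of -0.05 and -0.11, against 0.03 over all genes. Besides Scn4b and Cacng3, Cacna2d3 (9.98, 9.84 and 9.97 against 9.51, 9.64 and 9.78; -0.29 ± 0.10, adjusted p = 0.24) and Scn2b (11.75, 11.87 and 11.92 against 11.45, 11.63 and 11.68; -0.26 ± 0.10, adjusted p = 0.26) were lower in every transgenic mouse. Cacng7 joined Cacng5 in lying above all controls (10.85, 10.85 and 10.81 against 11.00, 11.00 and 11.01; 0.16 ± 0.08, adjusted p = 0.35). Those 4 lower and 2 higher genes compare with 9.2% and 16.1% of all genes. Cacna1g (7.38, 7.43 and 7.62 against 7.71, 7.59 and 8.00) and Cacna1d (6.74, 6.80 and 7.04 against 7.19, 6.91 and 7.24) were mostly higher and overlapped. Without transgenic mouse 3, 2 genes passed, Scn4b at -0.75 (adjusted p = 0.023) and Cacng5 at 0.72 (adjusted p = 0.026). The share of all genes passing in that fit was not counted.

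In the ELUTED fraction no channel gene was called, and the genotype medians of the 2 kinds of subunit differed in size. The median difference was -0.31 over pore-forming genes (12 of 15 lower) and -0.06 over auxiliary genes (9 of 16 lower), against 0.08 over all genes. Measured from the control mean, the pore-forming medians of transgenic mice 1, 2 and 3 were -0.33, -0.41 and -0.23 and those of control mice 1, 2 and 3 were 0.22, -0.33 and 0.11, so that control mouse 2 lay within the transgenic range. The auxiliary medians were -0.19, -0.10 and -0.02 in transgenic and 0.02, -0.15 and 0.08 in control mice, again with overlap. The corresponding INPUT medians were -0.16, -0.11 and 0.04 for pore-forming and -0.18, -0.02 and -0.10 for auxiliary genes. The ELUTED gap between the 2 kinds of subunit was -0.14, -0.31 and -0.21 in transgenic mice (-0.22 ± 0.08, SD, n = 3) and 0.20, -0.18 and 0.03 in control mice, and the genotypes overlapped. The transgenic mean was -0.095 without control mouse 1 and -0.42 without control mouse 2. Of the 8 calcium pores, 7 were lower, with a median of -0.40.

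By gene, none of the 31 passed in ELUTED (0% of all genes), and 2 (6.45%) had an unadjusted p under 0.05, against 18.1% of all genes. Scn1a read 10.31, 9.43 and 9.86 in control mice and 8.93, 9.21 and 9.35 in transgenic mice, without overlap (-0.70 ± 0.25, SE; adjusted p = 0.29). Cacng2 read 10.48, 9.76 and 9.88 against 9.46, 9.39 and 9.52, also without overlap (-0.59 ± 0.22, adjusted p = 0.29). With Scn8a, Cacng1 and Cacng3 these were 5 genes below all controls, beside Cacng5 above, where 7.64% of all genes were lower and 18.2% higher without overlap. Hcn2 (8.08, 6.77 and 7.09 against 6.43, 6.47 and 6.84; -0.74 ± 0.33, adjusted p = 0.31) and Cacna1e (11.27, 10.55 and 11.08 against 10.63, 10.45 and 10.28; -0.51 ± 0.23, adjusted p = 0.31) overlapped, since control mouse 2 lay among the transgenic mice. Without control mouse 1, whose ELUTED levels were the highest for these genes, the differences were -0.36 for Hcn2, -0.37 for Cacng2 and -0.48 for Scn1a. Without control mouse 2 Scn1a was called at -0.92 (adjusted p = 0.049), in a fit for which the share of all genes called was not counted. The other probe sets of Scn1a gave ELUTED differences of 0.11 and -0.34, and the mean over its probe sets was -0.31.

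Of the positive ELUTED differences, only that of Cacng5 had no overlap between genotypes. Scn3a read 6.19, 7.19 and 7.50 in control mice and 6.89, 7.32 and 8.11 in transgenic mice (adjusted p = 0.49), Cacna2d3 8.07, 9.06 and 8.86 against 8.83, 8.95 and 9.41 (adjusted p = 0.44), and Scn7a 5.30, 5.59 and 5.74 against 5.70, 5.70 and 5.88 (adjusted p = 0.50). Control mouse 1 was lowest for all 3.

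**Figure D5:**
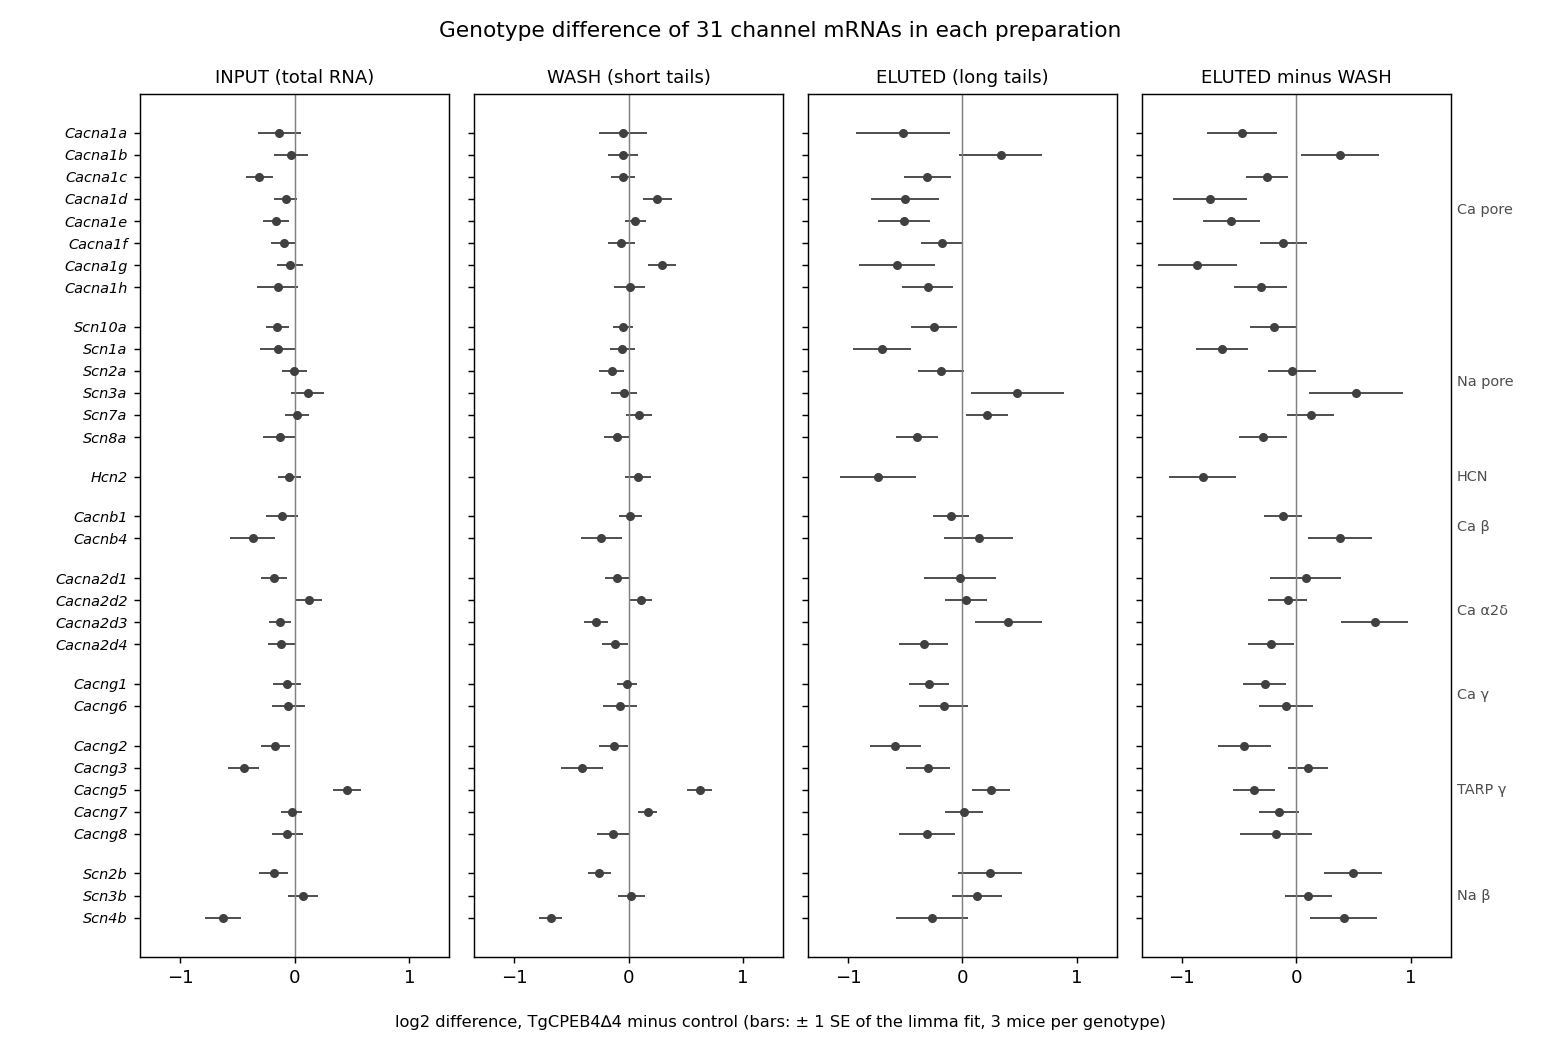
Log2 difference, TgCPEB4∆4 minus control, of the 31 channel genes in INPUT, WASH, ELUTED and the tail ratio, ordered by subunit role; bars are 1 SE of the limma fit with 3 mice per genotype. No gene passed an adjusted p of 0.05 in any panel, and the calcium pores lie left of 0 in ELUTED in 7 of 8 cases.

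The tail ratio itself, ELUTED minus WASH, was compared between genotypes within the same fit. No channel gene passed (0% of all genes did; lowest adjusted p = 0.37, limma), and 5 (16.1%) had an unadjusted p under 0.05, against 14.1% of all genes. Of the 31, 21 had a smaller tail ratio in transgenic mice, 12 of 15 pore-forming genes (median difference -0.29) and 9 of 16 auxiliary genes (-0.08), against a median of 0.02 over all genes. The calcium pores had a median difference of -0.39 and the sodium β subunits one of 0.41, so that both groups lay nearer to 0 in transgenic than in control mice. Tail ratios were mostly narrower over all tested probe sets as well. Their SD was 1.19, 0.593 and 0.859 in control mice and 0.614, 0.621 and 0.388 in transgenic mice. With all genes grouped by mean signal, lowest first, medians were 0.25, -0.11, -0.44 and -0.49 in control mice. In transgenic mice they were 0.09, -0.19, -0.32 and -0.20, farther from 0 only at -0.19. Whether these subunits moved beyond that general narrowing was not tested. The genotypes did not overlap for 5 channel genes with a lower and 2 with a higher ratio, against 7.36% and 11.9% of all genes.

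Among the genes with the smallest p in each direction, those with a lower ratio in transgenic mice were Cacna1g (-0.86 ± 0.34, SE), Hcn2 (-0.82 ± 0.29), Cacna1d (-0.75 ± 0.33) and Scn1a (-0.65 ± 0.23). Those with a higher ratio were Cacna2d3 (0.69 ± 0.29), Scn2b (0.50 ± 0.25), Scn4b (0.41 ± 0.29) and Cacnb4 (0.38 ± 0.28), all negative in control mice and closer to 0 in transgenic mice. The adjusted p of these 8 ran from 0.37 to 0.52. Without control mouse 1, whose tail ratios spread most, the differences were -0.46 for Cacna1g, -0.47 for Hcn2, -0.41 for Cacna1d and -0.45 for Scn1a, and 0.36, 0.22, 0.11 and 0.10 for the 4 genes with a higher ratio. With probe sets averaged, Scn1a was at -0.20. Without control mouse 2, Cacna1g, Hcn2 and Scn1a passed at -1.20, -1.07 and -0.85 (limma adjusted p = 0.040, 0.047 and 0.042). Tail ratios of that mouse spread least among control mice, and how many of all genes passed without it was not counted.

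Genes that work with these channels were listed by function and looked at in the same way. Sodium channel partners here include anchoring proteins and intracellular FGFs that bind the sodium pore. Of 10 tested partners, 3 were called positive and 2 negative in control mice, with a median of 0.15. Over all genes 20.5% were called positive and 39.9% negative in control mice, with a median of -0.18. Ank2, a spectrin-binding anchor, had a mean of 0.74 ± 0.21 (adjusted p = 0.0020) and was also called in transgenic mice (0.49 ± 0.01, adjusted p = 0.024). Nfasc, an adhesion protein of the initial segment, had 0.63 ± 0.23 and Fgf11 0.68 ± 0.39 (adjusted p = 0.0058 and 0.0078). Fgf12 (-0.55 ± 0.13, adjusted p = 0.0058) and Fgf14 (-0.74 ± 0.70, adjusted p = 0.023) lay toward short tails. Of 4 tested calcium channel regulators, Rims1 and Rimbp2, which tether calcium channels at the active zone, were called positive (0.38 and 0.39; adjusted p = 0.037 and 0.028). Of 3 tested HCN regulators Kcne2 was called (0.40, adjusted p = 0.025) at an INPUT signal within background, and Pex5l, the main HCN auxiliary protein, was at 0.03 (adjusted p = 0.86). The ELUTED signal of Kcne2 in control mouse 1, 6.39, was not above the nonspecific controls either.

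The sodium leak channel is a relative of these pores that is not gated by voltage in the usual way. All 3 of its tested genes were called in control mice, where 20.5% of all genes were called positive and 39.9% negative. The channel's pore gene Nalcn (-1.08 ± 0.52, adjusted p = 0.0026) and its auxiliary subunit gene Fam155a (-0.85 ± 0.48, adjusted p = 0.0068) lay toward short tails and its scaffold gene Unc79 toward long tails (1.05 ± 0.41, adjusted p = 0.0016). The ELUTED signal of Nalcn in control mouse 1, 6.45, was not above the nonspecific controls, so its ratio there is not an exact value. Nalcn was also called in transgenic mice (-1.16 ± 0.26, adjusted p = 0.0070). In the INPUT comparison of the genotypes none of these partner genes was called, where 0% of all genes were.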

How the data were processed

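The authors deposited log2 expression per probe set, made with RMA per the submitters' processing notes. The sources used here do not give its version, the genome build or whether all 18 arrays shared a run. Per the labels' protocols, 5 ng of RNA per preparation was amplified over 21 cycles, so values give a transcript's share of a preparation, not an amount. The design text names another array than the one whose probe set names and annotation (2016) were used. Arrays carry no read depth, and 3 mice per genotype limit the precision. Of 45141 probe sets, 104 controls were left out, 28898 named 1 gene, 551 several and 15588 none; symbols were checked against RefSeq GRCm38.p6. Probe sets above the 40th percentile of means were tested with limma 3.58.1 in R 4.3.3, per preparation for genotype, and on ELUTED minus WASH within each mouse for tails, with both genotypes sharing 1 spread. Scripts were tested on simulated data. For the genotype difference of the tail ratio, 5% of planted changes of 1 log2 unit were recovered and 78% of 2 units. The simulation gave each probe set 1 spread over all preparations and genotypes. In the data spreads differed (Cacna1e SD 0.37 in control ELUTED and 0.036 in control WASH), so these recoveries may not hold for them. Fractions of a mouse were paired by the labels; equal numbers across genotypes did not pair mice. Named members were up to 4 per subunit group with the largest control tail ratio, up to 4 per direction with the smallest p in each genotype comparison, and those whose probe sets disagreed. The members and lists were chosen with earlier results of these data known. Alternatives covered filters, normalisation, scaling, probe set choice, spread and each mouse left out. Shares of all genes called were counted for the main fit alone. Whether mice of a genotype shared a litter is not stated, so p-values measure the spread between these mice.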

Additional observations from a re-analysis of the deposited data

Results flagged for a closer look

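The second probe set of Cacng5, which has the lower signal of the pair, had tail ratios of opposite sign in the 2 genotypes. They were 0.14, 0.03 and 0.08 in control mice and -0.51, -0.47 and -0.19 in transgenic mice, a difference of -0.48 ± 0.17 (SE). The test of the difference itself did not pass (limma adjusted p = 0.37). The probe set was above the nonspecific controls on 0 of 3 INPUT arrays of either genotype and on 2 of 3 control ELUTED arrays. At the representative probe set of Cacng5 both genotypes were negative.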

How the results depend on the processing

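No channel gene was called between genotypes with the replicate block (0 in INPUT, WASH, ELUTED and the tail ratio), as without it, and numbers did not pair mice across genotypes (correlations -0.20 to 0.26). Between WASH and ELUTED of one mouse they were -0.066, 0.162 and -0.025 in control mice and 0.716, 0.333 and 0.427 in transgenic mice. In control mice the pairing of fractions therefore rests on the labels. With no replicate block, that is with fractions unpaired within a mouse, 12 tail ratios were called positive and 6 negative in control mice and 3 and 4 in transgenic mice.

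Leaving out each mouse in turn gave 8 to 13 positive and 4 to 6 negative calls in control mice (8 without control mouse 3; 10 positive and 4 negative without control mouse 1) and 0 to 8 positive and 0 to 7 negative calls in transgenic mice (0 without transgenic mouse 1 or 2). Genotype calls ranged from 0 to 0 in INPUT, 0 to 2 in WASH, 0 to 1 in ELUTED and 0 to 3 for the tail ratio. The gap between pore-forming and auxiliary medians ranged from 0.29 to 0.47 in control mice, from 0.13 to 0.25 in transgenic mice and from -0.42 to -0.095 in ELUTED.

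Positive calls in control mice were 7 with each genotype's own spread, and negative calls 3 over the 24 members above the nonspecific controls, a set chosen after seeing the data. In transgenic mice positive calls were 6 with quantile normalisation repeated and 6 with probe sets averaged. They were 5 with each mouse's tail ratios centred on their median, 12 with these scaled to the same SD and 9 with an own spread. Negative calls in transgenic mice were 1, 7 and 7 with repeated quantile normalisation, the same SD and an own spread, and 1 over the 24. The positive share of calls there was 42.9%, against 63.2% with the same SD and 55.6% with centring. The gap was 0.57 in control mice and 0.34 in transgenic mice with a 60th percentile filter. Without the TARPs it was 0.57 in control mice and -0.32 in ELUTED, and over the 24 members 0.57, 0.30 and -0.34. Of the 20 calls in control mice, 11 were kept with an own spread, 13 without control mouse 1, 14 without control mouse 3 and 15 with quantile normalisation repeated. The cause was not tested.

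Signs turned for INPUT differences of Scn3a (-0.031 to 0.24 with a mouse left out), Cacna2d2 (-0.012, probe sets averaged) and Scn3b (-0.012, quantile; -0.038 to 0.17 with a mouse left out). They turned for control tail ratios of Cacna1b (-0.091 to 0.55 with a mouse left out, below 0 without control mouse 2 or 3), Scn1a and Scn2a (-0.36 and -0.28, probe sets averaged), Cacna2d1 (0.089, quantile; -0.43 to 0.13 with a mouse left out, above 0 without control mouse 1) and Scn3b (0.12, quantile). In transgenic mice they turned for Scn2a (-0.11, probe sets averaged), Cacna2d1 and Scn3b (0.024 and 0.11, quantile), and for the tail difference of Cacnb4 (-0.091, same SD).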

Other observations

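Several channel genes lie next to each other in the order of protein-coding genes of RefSeq GRCm38.p6. Scn3a and Scn2a, neighbouring sodium pores, had control tail ratios of -1.58 and 0.22, but 3 of the 4 probe sets of Scn2a were negative. Scn2b and Scn4b, neighbouring sodium β genes, were both negative (-0.63 and -0.70). The γ genes Cacng7, Cacng8 and Cacng6, in that order, were all positive (0.40, 0.50 and 0.47). Cacng6 was at background in INPUT and on the ELUTED array of control mouse 1.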
